A study of Homo sapiens with 16 samples.

Results

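The nuclear pore and karyopherin genes were taken as every row of the deposited gene count table whose symbol began with NUP followed by a digit, L or B, with IPO or XPO followed by a digit, with KPNA or KPNB, or with TNPO, leaving out XPO5. This gave 43 of the 12676 genes in the table, 22 with nucleoporin symbols and 21 with karyopherin symbols. The rule used names and no measured value. All 43 had enough reads to be tested.

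The RNA came from H1299, a human non-small cell lung carcinoma line without functional p53. Both groups received a lentiviral pLKO vector with 8 µg/ml polybrene, and puromycin at 2 µg/ml was added after 48 h for a selection of 4 to 7 days. The vector carried an shRNA against YEATS2 in the 2 shYEATS2 libraries and the non-targeting shNT sequence in the 2 shCtrl libraries, and the labels do not name the YEATS2 shRNA. YEATS2 is a subunit of the ATAC histone acetyltransferase complex that binds acetylated histone H3. The comparison asks which transcripts changed when it was depleted. Other effects of the shRNA cannot be told apart from the loss of YEATS2 in these libraries. The paper reports a partial overlap of the lower genes with those of a further YEATS2 shRNA. The cells were stable pools of 1 line, and each group was sequenced from 2 libraries described as independent biological replicates.

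The nuclear pore complex is a ring of nucleoporins set in the nuclear envelope. Its outer rings are built from the Y complex, its inner ring anchors the scaffold to the membrane, and flexible nucleoporins fill the channel and extend into the nuclear basket and the cytoplasmic filaments. Karyopherins carry cargo through this channel. Importin alpha reads the classical nuclear localization signal and rides on importin beta, other members of the importin beta family bind their own cargoes, and exportins leave the nucleus bound to cargo and to Ran in its GTP form. The nuclear envelope of human cells is taken down and rebuilt at each mitosis, and several of these proteins also act on spindles or kinetochores.

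The table held 34718921 to 39417787 reads per library in the listed genes. Counts were scaled for library size with TMM factors, a trimmed mean that takes most genes as unchanged, and a scaled count below means reads at the mean library size. YEATS2 itself had scaled counts of 4482 and 4104 in shCtrl and of 665 and 673 in shYEATS2, a log2 fold change of −2.68. All 3 genes taken as markers of the cultured line, KRT8, KRT18 and VIM, were listed, and 0 of 4 leukocyte, 0 of 3 endothelial and 0 of 4 fibroblast markers were. Every listed gene had at least 101 reads in its highest library, so an unlisted marker may still have had reads. The 3 markers of the line had summed scaled counts of 141384 to 143760 in shCtrl and of 98030 to 124596 in shYEATS2. Most of the sum was VIM, with shCtrl means of 10439 for KRT8, 19245 for KRT18 and 112887 for VIM. Their log2 fold changes were 0.31, −0.81 and −0.37, with 0 called. Over all genes, 1581 were lower and 1630 higher at a false discovery rate (FDR) under 0.01 in edgeR's quasi-likelihood test, so that 49.2% of calls were lower. With total reads in place of TMM factors, the median of all genes moved from 0.00 to 0.12 on the log2 scale and 33.0% of calls were lower.

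In shYEATS2 cells 10 of 22 nucleoporin transcripts and 3 of 6 importin alpha transcripts fell, against 2 of 15 import receptors and exportins. Of the 43 genes, 15 fell (34.9%), 1 rose (2.33%) and 27 were not called, against a background of 12.5% of all genes called lower and 12.9% called higher. The 15 were KPNA2, NUP43, KPNA3, NUP107, NUP85, NUP37, NUP155, NUPL1, NUP153, NUP35, KPNA6, NUP50, NUP62, IPO11 and XPO1, and the gene that rose was KPNA5. Both shYEATS2 libraries lay below both shCtrl libraries for 30 of the 43 (69.8%, against 39.8% of all genes) and above both for 8 (18.6%, against 39.7% of all genes), and the groups overlapped for the other 5. All 1581 genes called lower had their groups apart, so a gap between the groups adds nothing to such a call. The log2 fold changes of the 43 had a median of −0.37, against 0.00 for all genes. The medians of the nucleoporins and karyopherins were −0.48 and −0.11. The nucleoporins gave 0 higher calls in edgeR's quasi-likelihood test, in exactTest, in DESeq2 and at an unadjusted p under 0.05. In that order, 12.9%, 20.5%, 17% and 28.7% of all genes were higher. In bulk RNA, fewer cells that carry a transcript and fewer transcripts per cell cannot be told apart.

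**Figure D1:**
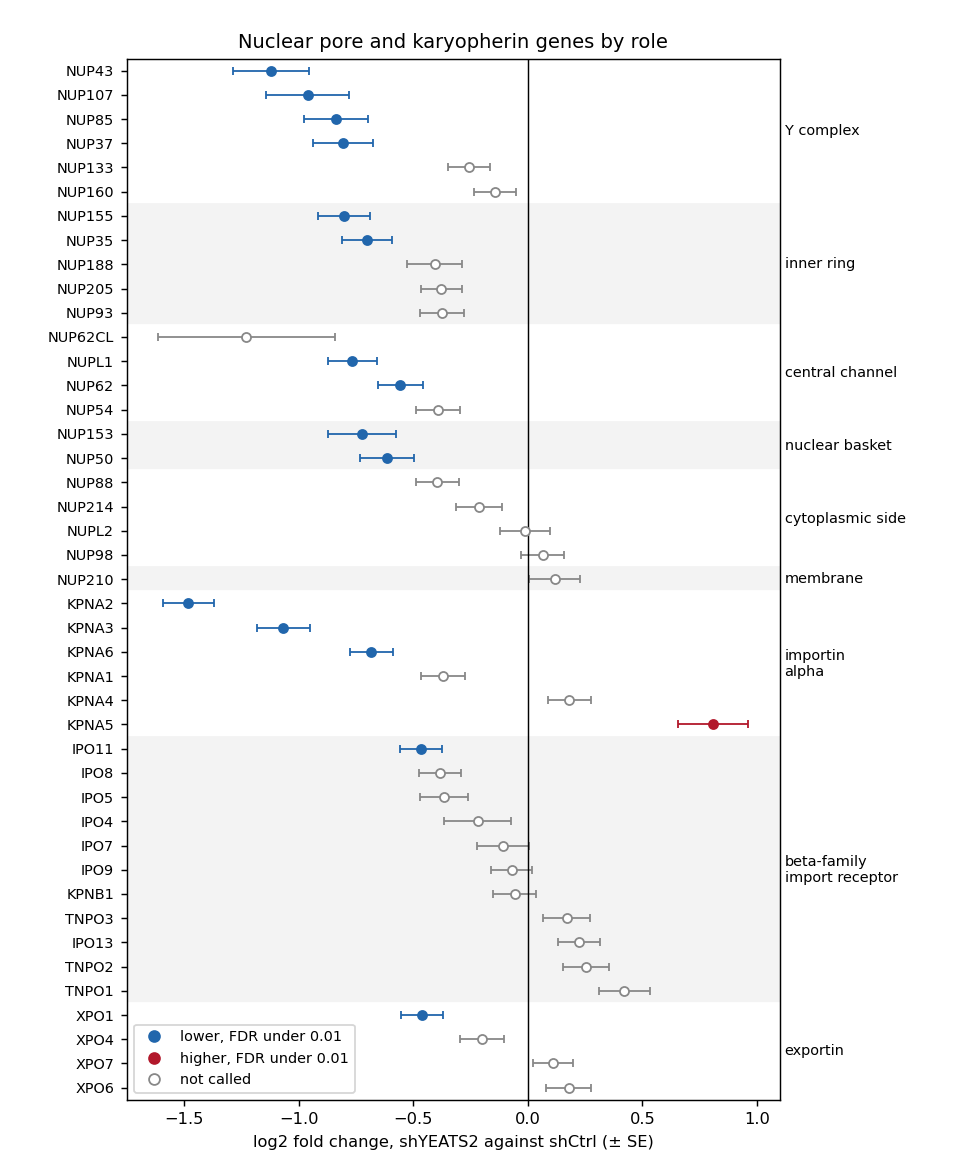
Log2 fold change of each of the 43 genes, shYEATS2 against shCtrl (x axis; bars are the standard error from the edgeR fit over 2 libraries per group), grouped by role in the pore or in transport. Filled blue points are the 15 genes called lower, the filled red point is KPNA5, called higher, and open points are the 27 not called. The Y complex, inner ring, channel and basket genes lie left of 0, while the import receptors and exportins lie on both sides.

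The counts depended on the libraries in the fit. Without shCtrl replicate 1, 6 of the 43 were called lower (against 6.71% of all genes) and 0 higher, and all 6 were among the 15. Without shCtrl replicate 2 or without shYEATS2 replicate 2, 10 were lower in each case (against 7.25% and 8.36% of all genes), and without shYEATS2 replicate 1, 16 were (against 16% of all genes). KPNA2, KPNA3, NUP43, NUP85, NUP155 and NUPL1 passed with every library left out in turn, whereas IPO11 lost its call whichever library was left out. Under scaling by total reads 11 of the 15 were called (against 9.2% of all genes), without IPO11, XPO1, NUP153 and NUP50, and TNPO1 was called higher beside KPNA5. The 8 mitotic and cycling genes examined (MKI67, TOP2A, CCNB1, CDK1, BUB1, AURKA, PLK1 and CENPF) were all lower too, with a median log2 fold change of −1.40. These 8 were chosen with earlier results of these data known, and 12.5% of all genes were called lower. Their summed scaled counts were 99868 to 110854 in shCtrl and 40594 to 40971 in shYEATS2, and their part in the lower nucleoporin and importin alpha counts was not tested.

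Transcripts of the Y complex, the scaffold of the outer rings, had the lowest median of the nucleoporin groups when only genes with NUP symbols were grouped. With the subunits that carry other names it was no longer the lowest, as given below. Of the 6 genes grouped with the Y complex, 4 fell, against 12.5% of all genes, and their median log2 fold change was −0.82. The shYEATS2 libraries lay below the shCtrl libraries in these 6, against 39.8% of all genes. NUP98, grouped with the cytoplasmic side, also encodes a Y complex subunit, and with it the tally was 4 of 7 lower at a median of −0.81, with overlapping groups for NUP98. NUP43 (ENSG00000120253, chr6:150045451-150070801, minus strand), a peripheral propeller of the Y, had scaled counts of 4891 and 4349 in shCtrl and of 2478 and 1771 in shYEATS2. Both knockdown values lay well below both control values, with a log2 fold change of −1.12 ± 0.17 (SE) and an FDR of 0.00295. NUP107 (ENSG00000111581, chr12:69080731-69139589, plus strand), in the stalk of the Y, had 6386 and 6066 in shCtrl and 3826 and 2571 in shYEATS2. The knockdown libraries differed from each other by more than the control libraries did, and the change was −0.96 ± 0.18 (FDR 0.00626).

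NUP85 (ENSG00000125450, chr17:73201754-73231853, plus strand), in the arm of the Y that carries SEH1L, had 4005 and 3737 scaled counts in shCtrl against 2445 and 1886 in shYEATS2. The groups did not overlap, and its log2 fold change was −0.84 ± 0.14 (FDR 0.00416). NUP37 (ENSG00000075188, chr12:102466881-102513898, minus strand), which binds NUP160 in the other arm, had 3007 and 2835 in shCtrl against 1872 and 1470.3 in shYEATS2. It fell by about as much, −0.81 ± 0.13 (FDR 0.00402). NUP133 at the end of the stalk and NUP160 at the joint of the Y were not called, with log2 fold changes of −0.26 (FDR 0.0571) and −0.14 (FDR 0.222). Gene coordinates are those of GRCh37, the build of the authors' alignment, from the GENCODE annotation lifted to it. A stretch of 5.02% of the annotated exon bases of NUP43 lies opposite PCMT1, and the library kit does not mark strand, so reads from such stretches cannot be told apart. The methods name HTSeq's default parameters, which count reads of 1 strand, and whether the deposited counts were made that way was not settled.

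Of the 5 inner ring genes, 2 fell (against 12.5% of all genes) and 3 were not called. In all 5 the shYEATS2 libraries lay below the shCtrl libraries, against 39.8% of all genes. NUP155 (ENSG00000113569, chr5:37288239-37371208, minus strand), which ties the inner ring to the membrane, had scaled counts of 9645 and 9286 in shCtrl and of 5906 and 4946 in shYEATS2. It fell by 0.80 on the log2 scale (SE 0.11, FDR 0.00255) and passed under all 11 other settings. Of those settings, the fit without a count filter held the same genes as the reported fit and could not differ from it. NUP35, which bends and binds the membrane at the pore, ran from 1024 to 1062 in shCtrl and from 615 to 668 in shYEATS2, a log2 fold change of −0.70 (FDR 0.00353). The larger scaffold proteins NUP188, NUP205 and NUP93 had log2 fold changes of −0.41, −0.38 and −0.37 with FDRs of 0.0298, 0.0138 and 0.0179. These 3 values missed the threshold. All 3 passed in DESeq2, which called 17.3% of all genes lower. In exactTest, which called 19.7% lower, NUP205 and NUP93 passed and NUP188 did not (FDR 0.0104). Under scaling by total reads all 3 missed again, with FDRs of 0.0792, 0.0493 and 0.0574.

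The flexible nucleoporins of the central channel, which form the barrier that cargo must cross, gave 2 of 4 genes lower (12.5% of all genes). NUPL1 (ENSG00000139496, chr13:25875662-25939528, plus strand), now named NUP58, had scaled counts of 3985 and 3784 in shCtrl and of 2435 and 2132 in shYEATS2. The groups were apart, and the change was −0.77 ± 0.11 (FDR 0.00243). NUP62, its partner in the channel complex, fell by 0.56 on the log2 scale (FDR 0.00513), and 9.38% of its annotated exon bases lie opposite ATF5. NUP54, the remaining partner, had a log2 fold change of −0.39 (FDR 0.0162). NUP62CL, which resembles the C-terminal part of NUP62, had only 122 to 153 scaled counts in shCtrl and 35.4 to 82.5 in shYEATS2, and its log2 fold change of −1.23 ± 0.39 was not called (FDR 0.0367).

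Both nuclear basket genes with NUP symbols fell, against 12.5% of all genes. TPR, a basket protein with another name, had a log2 fold change of −0.30 and was not called (FDR 0.0391). NUP50 (ENSG00000093000, chr22:45559806-45583898, plus strand), a mobile nucleoporin that helps release importin alpha from its cargo, had scaled counts of 4520.2 and 4093 in shCtrl and of 3051 and 2578 in shYEATS2. The groups did not overlap, and its log2 fold change was −0.61 ± 0.12 (FDR 0.00675). NUP153, which anchors the basket, ran from 12488 to 15504 in shCtrl and from 7564 to 9381 in shYEATS2, with a log2 fold change of −0.72 ± 0.15 (FDR 0.00855). Of its annotated exon bases, 10.6% lie opposite the listed gene RP11-500C11.3. Under scaling by total reads neither NUP50 nor NUP153 passed.

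The cytoplasmic and membrane nucleoporins with NUP symbols gave 0 calls among 5 genes in edgeR's quasi-likelihood test. That test called 12.5% of all genes lower and 12.9% higher. At an unadjusted p under 0.05, which 27.8% of all genes passed as lower and 28.7% as higher, 1 of the 4 cytoplasmic genes was lower and 0 higher. EdgeR's exactTest and DESeq2, which called 19.7% and 17.3% of all genes lower and 20.5% and 17% higher, each called that gene, NUP88, lower. NUP88 (ENSG00000108559, chr17:5262963-5323484, minus strand) had scaled counts of 4269 and 4017 in shCtrl and of 3112 and 3189 in shYEATS2. The groups were apart at a log2 fold change of −0.40 ± 0.09 (FDR 0.0136), and 35.5% of its annotated exon bases lie opposite RABEP1 and RPAIN. NUP214, the partner of NUP88 on the filaments, had −0.21 (FDR 0.122), and NUPL2, a smaller filament protein, had −0.01 (FDR 0.931). NUP98, whose row holds the precursor of both the flexible NUP98 and the Y complex subunit NUP96, had 0.06 (FDR 0.593). Among pore proteins with other names, the membrane protein NDC1 fell, with a log2 fold change of −1.15 (FDR 0.00226). POM121, POM121C, RANBP2, GLE1, AAAS and RAE1 lay between −0.21 and 0.08, and none had a call. NUP210, a membrane-spanning pore protein, had 6228 and 5275 in shCtrl and 6087 and 6389 in shYEATS2, and its groups overlapped (log2 fold change 0.12 ± 0.11, FDR 0.407, and not called by exactTest or DESeq2 or at an unadjusted p under 0.05).

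**Figure D2:**
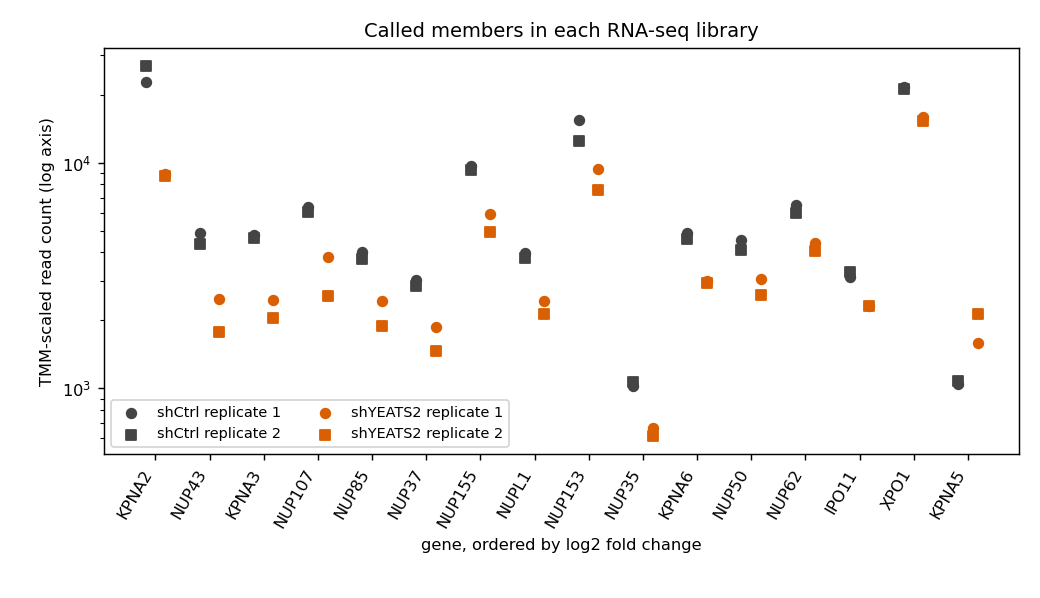
TMM-scaled read counts (y axis, log scale) of the 16 called genes in each of the 4 libraries, shCtrl in grey and shYEATS2 in orange, circles for replicate 1 and squares for replicate 2. For the 15 genes called lower both orange points lie below both grey points, as is so for all 1581 genes called lower in the table. For KPNA5 both lie above, and for NUP107 the orange points are 3826 and 2571.

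Importin alpha transcripts moved in both directions. Of the 6 genes, 3 fell (against 12.5% of all genes), 1 rose (against 12.9%) and 2 were not called. In each of the 6 the groups were apart in either direction, as they were for 79.6% of all genes. KPNA2 (ENSG00000182481, chr17:66031752-66043480, plus strand), importin alpha 1, had scaled counts of 22746 and 26671 in shCtrl and of 8932 and 8757 in shYEATS2. The means were 24709 ± 2776 and 8844 ± 123 (SD, n = 2 each), so shYEATS2 cells held 35.8% of the control level. Its log2 fold change of −1.48 ± 0.11 (FDR 0.000793) was the lowest of the 43, and it ran from −1.60 to −1.36 over the 11 other settings, passing in all of them. The annotation names 3 KPNA2 pseudogenes, of which 0 are listed in the table, and HTSeq's default parameters, named in the methods, leave out reads aligned to several places.

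KPNA3 (ENSG00000102753, chr13:50273456-50366818, minus strand), or importin alpha 4, had 4777 and 4656 in shCtrl against 2455 and 2045 in shYEATS2. It fell by 1.07 on the log2 scale (SE 0.12, FDR 0.0013). KPNA4, or importin alpha 3, belongs to the same subfamily as KPNA3 and had 11963 and 11181 in shCtrl against 13024 and 13216 in shYEATS2, a log2 fold change of 0.18 that was not called (FDR 0.145). KPNA5 (ENSG00000196911, chr6:117002350-117063030, plus strand), or importin alpha 6, was the only one of the 43 called higher. It had 1049 and 1077 in shCtrl and 1584 and 2136 in shYEATS2, and its log2 fold change was 0.81 ± 0.15 (FDR 0.00622). Without shCtrl replicate 1 or without shCtrl replicate 2 this call was lost, and the log2 fold change ran from 0.58 to 1.01 over the other settings. In the subfamily of KPNA5, KPNA6 fell, with 4900 and 4586 against 2974 and 2936 and a log2 fold change of −0.68 (FDR 0.0023), while KPNA1 had −0.37 (FDR 0.0179).

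The share of each gene in the importin alpha pool was taken from scaled reads per kb of its canonical transcript. KPNA2 made up 75.5% and 79.1% of the pool in shCtrl and 60.3% and 60.2% in shYEATS2. KPNA4 made up 8.77% and 7.33% in shCtrl and 19.4% and 20.1% in shYEATS2, and KPNA5 rose from 0.61% and 0.56% to 1.87% and 2.57%. The groups were apart for these 3 genes and for KPNA6 and KPNA1. The mean share of KPNA6 rose from 4.01% in shCtrl to 5.41% in shYEATS2, although its count was called lower. With 2 libraries against 2 the exact two-sided permutation test cannot go below p = 0.333, the value that each gene with groups apart gave. The summed pool was 15245 and 17048 scaled reads per kb in shCtrl and 7494 and 7356 in shYEATS2, so the larger share of KPNA4 stood beside a near-level count of its own. With lengths counted over all annotated exons of each gene, KPNA2 made up 49.3% and 54.5% in shCtrl and 33.6% and 33.7% in shYEATS2. By reads with no division by length, KPNA2 made up 46.5% and 51.8% in shCtrl and 28.2% and 27.6% in shYEATS2, where KPNA4 made up 41.1% and 41.7%.

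**Figure D3:**
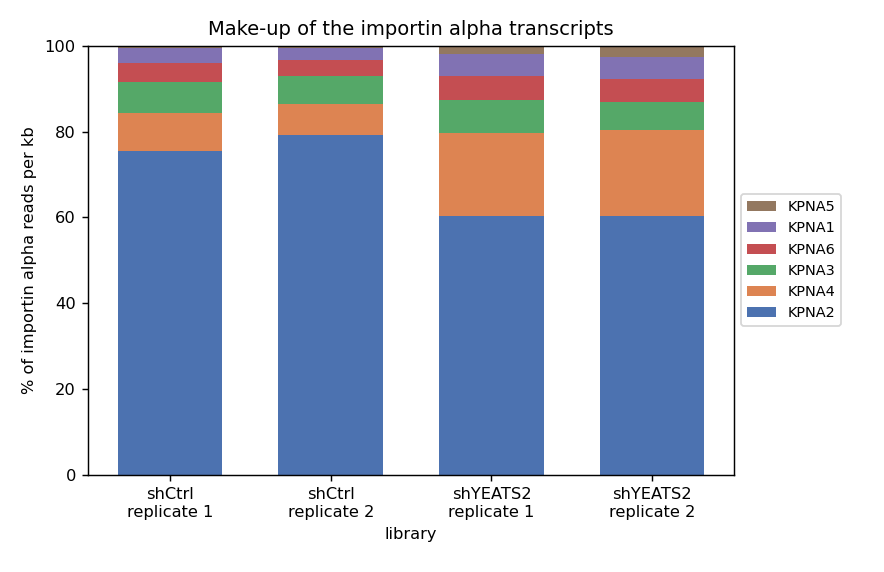
Share of each of the 6 importin alpha genes in their summed scaled reads per kb of canonical transcript (y axis, percent) in each library (x axis). The KPNA2 share is 75.5% and 79.1% in the shCtrl libraries and 60.3% and 60.2% in the shYEATS2 libraries, and the KPNA4 share is 19.4% and 20.1% in shYEATS2.

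Of the 11 import receptors of the importin beta family, 1 fell and 0 rose in the quasi-likelihood test, against 12.5% and 12.9% of all genes. At an unadjusted p under 0.05, 3 were lower and 3 higher, near the 27.8% and 28.7% of all genes. ExactTest and DESeq2 each called 2 lower and 1 higher, against 19.7% and 17.3% of all genes lower and 20.5% and 17% higher. KPNB1, importin beta 1 and the carrier of every importin alpha, had 49327 and 45384 scaled counts in shCtrl and 46274 and 44739 in shYEATS2. Its groups overlapped (log2 fold change −0.06 ± 0.09, FDR 0.637), and the sign turned to 0.06 under scaling by total reads. Per kb of canonical transcript the means were 12498 for KPNA2 and 7817 for KPNB1 in shCtrl, and 4474 and 7512 in shYEATS2. The order in shCtrl rested on the length used, since per kb of all annotated exons KPNA2 had 3355 and KPNB1 had 4595.

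IPO11 (ENSG00000086200, chr5:61699799-61924409, plus strand), which imports ubiquitin-conjugating enzymes, was the receptor called lower. It had 3120.3 and 3279 in shCtrl against 2318 and 2313 in shYEATS2, a log2 fold change of −0.47 ± 0.09 (FDR 0.00746). The call was lost under scaling by total reads and with any of the 4 libraries left out, where the change ran from −0.51 to −0.43. IPO8, which has been tied to Argonaute proteins, and IPO5, an importer of ribosomal proteins and histones, had −0.38 (FDR 0.0149) and −0.37 (FDR 0.0281). IPO4, IPO7 and IPO9 lay between −0.22 and −0.07 with FDRs of 0.246, 0.461 and 0.534, and IPO7 and IPO9 turned positive under scaling by total reads.

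The transportins and IPO13 lay on the other side of 0. TNPO1, transportin 1, an import receptor for RNA-binding proteins, had 17102 and 16192 in shCtrl and 20441 and 24135 in shYEATS2. The groups were apart, and its log2 fold change of 0.42 ± 0.11 was not called (FDR 0.021), although it was called higher by edgeR's exactTest, by DESeq2 and under scaling by total reads. TNPO2, its close relative, had 0.25 (FDR 0.0718), TNPO3, which imports serine and arginine rich splicing factors, had 0.17 (FDR 0.202), and IPO13, which carries cargo both ways, had 0.22 (FDR 0.0791).

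Of the 4 exportins, 1 fell, against 12.5% of all genes. XPO1 (ENSG00000082898, chr2:61703167-61765876, minus strand), also known as CRM1 and the receptor for leucine-rich export signals, had 21660.4 and 21174 in shCtrl and 15890.3 and 15231 in shYEATS2. The groups were apart, and the log2 fold change was −0.46 ± 0.09 (FDR 0.00731), a call lost under scaling by total reads and without shCtrl replicate 1, shCtrl replicate 2 or shYEATS2 replicate 2. XPO4, an exporter of eIF5A, had −0.20 (FDR 0.121). XPO6, the exporter of actin, and XPO7, with a broad range of cargoes, had 0.18 (FDR 0.174) and 0.11 (FDR 0.33).

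Among the 25 partner genes of the pathway that carry other names, 7 fell and 0 rose, against 12.5% and 12.9% of all genes. Their median log2 fold change was −0.18. At an unadjusted p under 0.05, 9 were lower and 1 higher, against 27.8% and 28.7% of all genes. EdgeR's exactTest and DESeq2 each called 8 lower and 1 higher. Of all genes they called 19.7% and 17.3% lower and 20.5% and 17% higher. Fewer of the 25 were called lower without shCtrl replicate 1, shCtrl replicate 2 or shYEATS2 replicate 2, and fewer of all genes were too. NXT1, the cofactor of the mRNA exporter NXF1, had the lowest value, from 681 to 809 scaled counts in shCtrl and from 148 to 247 in shYEATS2, a log2 fold change of −1.92 (FDR 0.0018). NXF1 itself had 0.40 and was not called (FDR 0.0138).

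The Ran cycle gave 3 of 6 genes lower, against 12.5% of all genes. RAN, the GTPase that sets the direction of transport, had a log2 fold change of −0.93 (FDR 0.00293), RANBP1, which helps Ran hydrolyse GTP at the cytoplasmic side, had −0.92 (FDR 0.00442), and RCC1, the nuclear exchange factor for Ran, had −0.63 (FDR 0.0042). RANGAP1, RANBP3 and NUTF2 lay between −0.07 and −0.04. Of the 11 pore proteins with other names, NDC1, a membrane protein needed to seat the pore, had −1.15 (FDR 0.00226), and the Y complex subunits SEC13 and SEH1L had −0.61 (FDR 0.0028) and −0.48 (FDR 0.00789). AHCTF1, or ELYS, which brings the Y complex to chromatin, had −0.18 and was not called (FDR 0.137). Counting these 3 and NUP98, 6 of 10 Y complex transcripts were lower, with a median of −0.55. That median lay above those of the central channel (−0.66) and nuclear basket (−0.67) genes with NUP symbols. CSE1L, which returns importin alpha to the cytoplasm, had −0.43 and was not called (FDR 0.011). POM121 and POM121C, at 0.08 and −0.07, are near-identical copies between which reads may have been split.

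**Figure D4:**
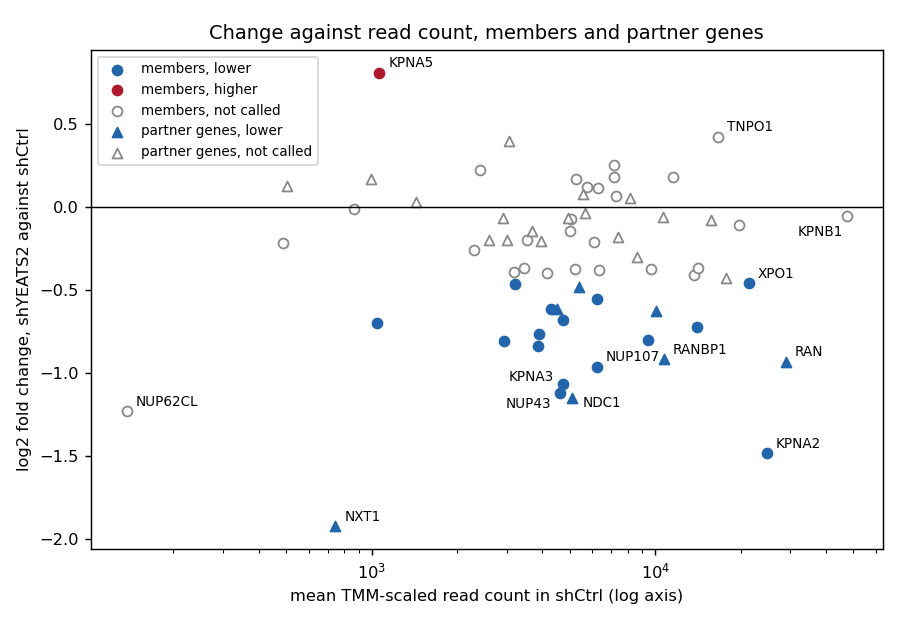
Log2 fold change (y axis) against the mean TMM-scaled count in the 2 shCtrl libraries (x axis, log scale) for the 43 members (circles) and 25 partner genes (triangles). Blue marks genes called lower, red the gene called higher, open symbols genes not called. KPNA2 at −1.48 and RAN at −0.93 stand among the most counted genes, KPNB1 at −0.06 is the most counted of all, and NUP62CL at −1.23 is the least counted.

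Proximal promoter sequence was examined for the letters of 4 known motifs, chosen after the counts were seen. RefSeq windows of 250 bases before to 50 after the transcript start (GRCh38.p14) were found for 38 of the 43 genes, and not for NUP43, KPNA4, KPNA5, KPNB1 and XPO7. Searches ran on both strands, and a gene with several windows counted if any held the letters. TTTGAA, the letters of the cell cycle homology region read by DREAM and MYB complexes, was found in 6 of 14 genes called lower and in 4 of the other 24, against 13.3% of 9085 genes of the table with a window and 18.2% of all 27305 genes with one. The 6 were KPNA2, NUP37, NUP153, NUP35, NUP50 and IPO11, of which NUP50 and IPO11 had 2 windows each and so more sequence to search. CCAAT, the letters bound by NF-Y, was found in 7 of 14 and 13 of 24, against 43.7% of the table. CCGGAAG, an ETS site, was found in 5 of 14 and 7 of 24, against 23.3%, and TTTCCCGC, an E2F site, in 0 of 38, against 3.34%. These are matches of letters and were not tested as binding sites.

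KPNA2, NUP37 and NUP35 were the genes called lower whose windows held both CCAAT and TTTGAA, as did 3 of the other 24 and 7.43% of the table, and their last 150 bases before the start are shown for the spacing of those letters. They are given 5′ to 3′ on the gene's own strand, with CCAAT and TTTGAA in capitals on whichever strand they read. The intervals are chr17:68035585-68035734 on the plus strand for KPNA2, chr12:102120115-102120264 on the minus strand for NUP37 and chr2:183124293-183124442 on the plus strand for NUP35.
KPNA2: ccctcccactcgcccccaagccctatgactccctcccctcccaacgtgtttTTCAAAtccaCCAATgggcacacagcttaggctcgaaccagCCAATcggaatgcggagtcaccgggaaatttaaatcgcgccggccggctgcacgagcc
NUP37: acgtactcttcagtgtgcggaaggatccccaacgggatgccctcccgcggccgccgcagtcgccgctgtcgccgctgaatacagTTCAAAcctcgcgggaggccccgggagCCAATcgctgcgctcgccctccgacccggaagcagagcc
NUP35: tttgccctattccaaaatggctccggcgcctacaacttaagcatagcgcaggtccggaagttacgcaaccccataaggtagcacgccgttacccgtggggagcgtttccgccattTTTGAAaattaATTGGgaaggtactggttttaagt
KPNA2, with the largest fall of the 43, held 2 CCAAT and 1 TTTGAA (reverse strand) in this stretch, and NUP37 and NUP35 held 1 of each.

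The order of the replicates was examined because shYEATS2 replicate 2 often had the lower count. It lay below shYEATS2 replicate 1 in all 15 genes called lower, and also in 1328 of the 1566 other genes called lower, against 6419 of all 12676 genes. In the controls, replicate 2 lay below replicate 1 in 12 of the 15 and in 36 of the 43, against 6323 of all genes. Leaving out shYEATS2 replicate 2 moved the median of the 43 from −0.37 to −0.31, and leaving out shYEATS2 replicate 1 moved it to −0.40. Over the 4 fits that each left out 1 library, 0 of the 15 log2 fold changes moved by more than 1.5 times.

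**Figure D5:**
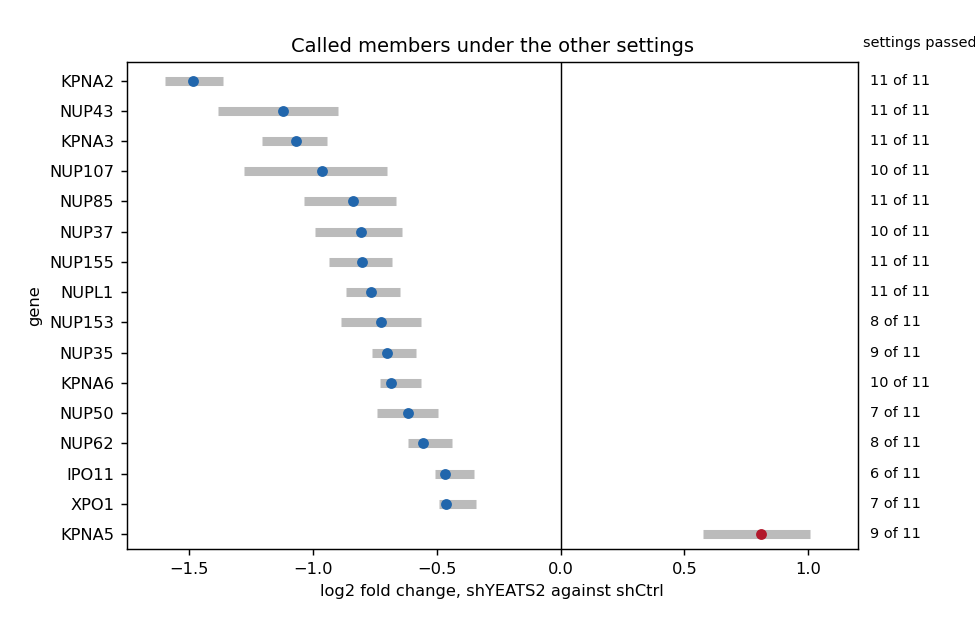
Log2 fold change of the 16 called genes in the reported fit (points) and its range over 11 other settings (grey bars: other tests, scalings and filters, a replicate block, and each library left out). The setting without a count filter held the same genes and repeats the reported fit. The column at right counts the settings in which the gene passed an FDR under 0.01; 6 genes passed in 11 of 11, and IPO11 passed in 6 of 11. No range crosses 0.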

How the data were processed

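RNA-seq counts were analysed for the 2 shCtrl and 2 shYEATS2 libraries, and the ChIP-seq samples of the series were not used here. Per the labels and the study's methods, the authors made poly(A) libraries with TruSeq mRNA v2, mapped reads to hg19 and deposited whole-number counts per gene from HTSeq. The methods name RNA-Seq unified mapper with HTSeq, and the submitters' processing notes list TopHat2 2.0.10, Bowtie2 2.1.0 and HTSeq 0.6.1p1. Every listed gene had at least 101 reads in its highest library. The table also held the authors' own log2 fold changes, p-values and FDRs as deposited by the authors, which were not used.

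All 12676 genes reached 10 reads in 2 or more libraries and were fitted with edgeR 4.0.16 (R 4.3.3, limma 3.58.1): TMM factors of 0.95 to 1.05, glmQLFit, glmQLFTest and Benjamini-Hochberg adjustment over all genes, called at an FDR under 0.01. Standard errors are the log2 fold change divided by the square root of the F statistic. The biological coefficient of variation was 0.107 and the median standard error 0.12 on the log2 scale. In counts simulated for this comparison with 200 of 12676 genes changed by 1 on the log2 scale, 192 were recovered with 2 false calls. The simulation gave every gene the same dispersion of 0.01 and drew the libraries independently. Its recovery therefore does not describe smaller changes, or spread that differs between genes. Replicates of a group differed by more than sampling noise (chi-square per degree of freedom of 17.9 and 38.0). The alternatives were exactTest, DESeq2 1.42.0, its size factors, total counts, other count filters, a replicate block and leaving out each library. Without a count filter all 12676 genes were again fitted, so that setting repeated the reported fit. Every member is named, with full values for calls of at least 0.8 on the log2 scale and the lowest FDR in each role. The members and lists were chosen with earlier results of these data known.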

Additional observations from a re-analysis of the deposited data

How the results depend on the processing

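Of 472 pairs of a member and another setting, 409 kept both direction and call, 30 newly passed, 26 lost the call and 7 turned sign, in 4 genes near 0. All 15 genes called lower were also called by edgeR's exactTest, DESeq2, DESeq2 size factors, the replicate block and with a minimum mean count of 100. The setting without a count filter repeated the reported fit, so its pairs could only stay the same. ExactTest called 2497 genes lower and 2596 higher over the table and an FDR under 0.05 called 3011 and 3093. With the replicate number as a block the table gave 2715 lower and 2742 higher, the members 24 lower (16 nucleoporin, 8 karyopherin) and 2 higher. An FDR under 0.05 also gave 24 lower (16 and 8) and 2 higher. The members called higher were 2 in exactTest, DESeq2 and total counts. The labels do not say that the numbers pair the libraries, and deviations of same-numbered libraries correlated at 0.40 over genes in only 2 pairs.

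Total counts gave 11 members lower and 3 karyopherins lower, with a median of −0.25 for the members. NUPL2, KPNB1, IPO9 and IPO7 then turned to 0.11, 0.0625, 0.0487 and 0.0125. The change in the KPNA2 share was −17.1 percentage points, −21.2 without division by length and −18.2 with lengths over all exons, a setting chosen after seeing the data.

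Leaving out 1 library gave 850 to 2024 genes lower and 775 to 1971 higher over the table, 6 to 16 members lower and 0 to 2 higher, 4 to 12 nucleoporins, 2 to 4 karyopherins and 3 to 8 partner genes lower, and a members' median from −0.40 to −0.31. The fewest calls came without shCtrl replicate 1 for all of these, tied at 0 members higher with shCtrl replicate 2 left out. NUPL2 ran from −0.0703 to 0.0431 and IPO7 from −0.24 to 0.0293. With 1 library left in a group, its spread was taken from the other group. The causes were not tested, except that these fits hold fewer samples. With 2 libraries per group and a median standard error of 0.12, changes such as that of IPO8 lie near what the test can call.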
